A study of Mus musculus with 4 samples.

Results

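The 9 genes described here encode transcription factors that steer bone marrow cells into the macrophage, osteoclast or granulocyte line: Spi1, Cebpa, Cebpb, Cebpd, Cebpe, Gfi1, Maf, Prdm1 and Bcl6. They were listed by name, and every probe set with 1 of these symbols in the platform annotation was taken. Of the 9 genes 8 had a probe set, 16 probe sets in all among the 45101 of the array, and Cebpe was not analysed here. The arrays measured RNA from marrow of female C57Bl/6J mice aged 12 weeks, in cultures that form osteoclasts, with 1 Affymetrix array on each of 4 days. The groups were day 1 (the day of extraction, before any culture), day 4 (after 3 days in alpha-MEM with 10% serum and 10 nM vitamin D3), day 5 and day 7. On days 5 and 7 the medium also held 20 ng/ml M-CSF, the growth factor of macrophages, and 40 ng/ml RANKL, the cytokine that drives osteoclast formation. The labels give 4 and 6 days of differentiation for these, taken here to count from the start of culture, and do not say how many mice or cultures each array stands for. No array of day 5 or 7 lacked the cytokines, so they cannot be told apart from time in culture. Every cultured array had vitamin D3, so its part cannot be told apart from that of serum and culture itself.

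These factors act as a network. PU.1, the product of Spi1, is needed for macrophages, osteoclasts and neutrophils alike, and is held to favour macrophages when its level is high relative to that of the C/EBP factors. C/EBPα opens the granulocyte and monocyte line, C/EBPβ and C/EBPδ serve inflammatory and emergency responses, C/EBPε serves the late steps of neutrophil formation, and the repressor GFI1 favours neutrophils over monocytes. c-MAF, the product of Maf, shapes resident macrophages. BLIMP1, the product of Prdm1, lets osteoclasts form by repressing inhibitors of the process, among them Bcl6 and Irf8. BCL6 in turn represses osteoclast genes such as Nfatc1, Dcstamp and Ctsk. Both BLIMP1 and BCL6 also act in B cells, where BCL6 belongs to the germinal centre and BLIMP1 to plasma cells.

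The values are the signal of a probe set on a linear scale, as the authors deposited it. A floor of 32.4, which is the median of all non-control values, replaced lower signals before differences were taken on the log2 scale, later day minus earlier day. Differences of 2-fold or more were called. With 1 array a day nothing was replicated or tested, and the values describe these 4 arrays alone. All arrays were labelled as primary osteoclasts, yet on day 1 the osteoclast genes Calcr, Dcstamp, Ocstamp and Oscar lay under the floor and 12 of 16 listed osteoclast genes above it, against 15, 16 and 16 on days 4, 5 and 7. The summed signal of 18 measured neutrophil genes was 142557, 77012, 42136 and 6503 on days 1, 4, 5 and 7, and that of 15 B cell genes was 12213, 4779, 1291 and 585. The sums for 14 stromal genes were 5782, 36337, 45621 and 28801, and those for 12 macrophage genes 52500, 71215, 69321 and 71677. The sum for 8 erythroid genes was 20058, 186, 174 and 123. On day 4, 6 of 7 tested were lower than on day 1 by 2-fold or more (median log2 difference -5.92), against 8.65% of all genes. In such mixed samples fewer cells of a type and less RNA per cell cannot be told apart, and the part of cell makeup in the members' values was not tested.

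Over the whole course, by their brightest probe sets, 5 of the 8 measured genes spanned at least 2-fold between their highest and lowest array: Gfi1, Cebpa, Bcl6, Cebpd and Prdm1. Of all 12438 genes above the floor on at least 1 array, 37.4% did so. Gfi1 was the member with the widest span, at least 28.5-fold, and Maf had the narrowest on its brightest probe set, 1.32-fold. Gfi1, Cebpb, Cebpd and Bcl6 had a lower signal at each of the 3 steps, a pattern looked for after their values were seen, which 18.1% of genes above the floor on day 1 showed. For Gfi1 the last of these steps lay wholly under the floor. Spi1 alone among the measured members had a higher signal at each step, and its first step changed sign under median scaling.

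**Figure D1:**
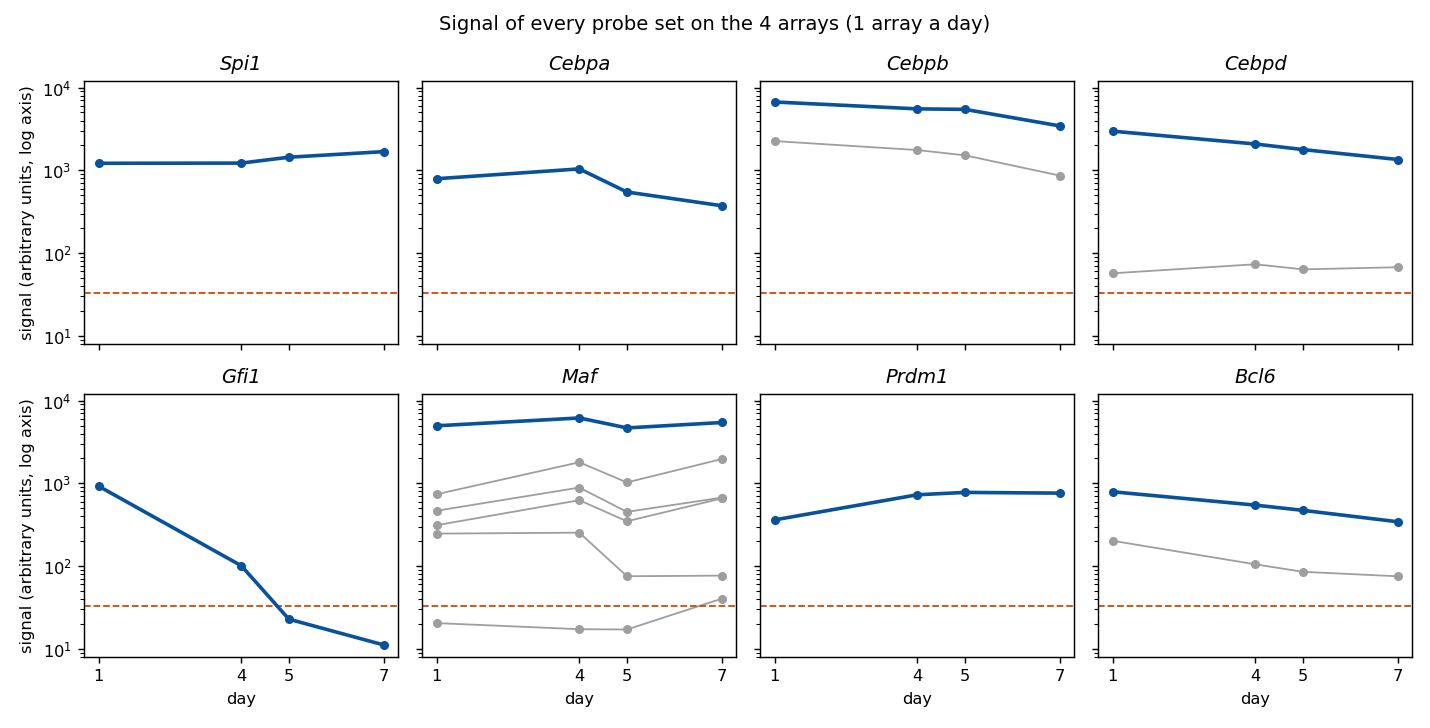
Signal of all 16 probe sets (arbitrary units, log axis) against the day of culture, with 1 point per array. Blue lines are the probe sets that stand for their genes, grey lines the other probe sets and the dashed line the floor of 32.4; Gfi1 crosses the floor between days 4 and 5, and the 4 brightest Maf probe sets are lower on day 5 than on days 4 and 7.

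By comparison, 1 of the 8 measured members was at least 2-fold higher on day 4 than on day 1 (Prdm1), where 10.0% of 11981 genes were, and 1 was lower (Gfi1), where 8.65% were. On day 5 over day 4, 0 members were higher, against 2.02% of 11804 genes, and 1 was lower (Gfi1), against 4.04%. On day 7 over day 5, 0 of 7 members above the floor reached 2-fold in either direction, against 0.853% of 11611 genes higher and 5.84% lower. On day 7 over day 4, 0 were higher and 2 lower (Gfi1 and Cebpa), against 3.12% and 9.12% of 11749 genes. On day 7 over day 1, 1 was higher (Prdm1) and 4 lower (Gfi1, Cebpa, Cebpd and Bcl6), against 12.7% and 16.2% of 11967 genes. With 8 members a count of 1 says little against these shares, and the count farthest from its background was the 4 lower on day 7 than on day 1. That count was 3 under median scaling, without Cebpa. It was 4 with Cebpb in place of Cebpa under quantile normalization, and 4 with Cebpb in place of Cebpd with the mean over probe sets. Scaling moved the split of higher and lower calls among all genes for day 7: set against day 5 it was 99 and 678, but 197 and 424 under quantile normalization and 183 and 491 under median scaling. Set against day 4 it was 367 and 1071, but 573 and 735 or 548 and 824, and set against day 1 it was 1516 and 1939, but 2008 and 1560 or 1892 and 1673, in the same order of settings. The comparisons share arrays and are not independent of each other.

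The members' median log2 difference was -0.13 for day 4 against day 1, -0.22 for day 5 against day 4 and -0.40 for day 7 against day 5, against 0.05, 0.06 and -0.11 for all genes above the floor on both arrays. For day 7 against day 5 the median was -0.22 for the 7 members and 0.06 for all genes under median scaling, and -0.27 and 0.03 under quantile normalization. With the mean over probe sets the median of these 7 members was -0.16, against -0.10 for all genes. Relative to the median of all genes, the day 7 over day 5 differences were -0.56 for Cebpb, -0.44 for Cebpa, -0.35 for Bcl6 and -0.29 for Cebpd, and 0.33 for Spi1, 0.33 for Maf and 0.08 for Prdm1.

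**Figure D2:**
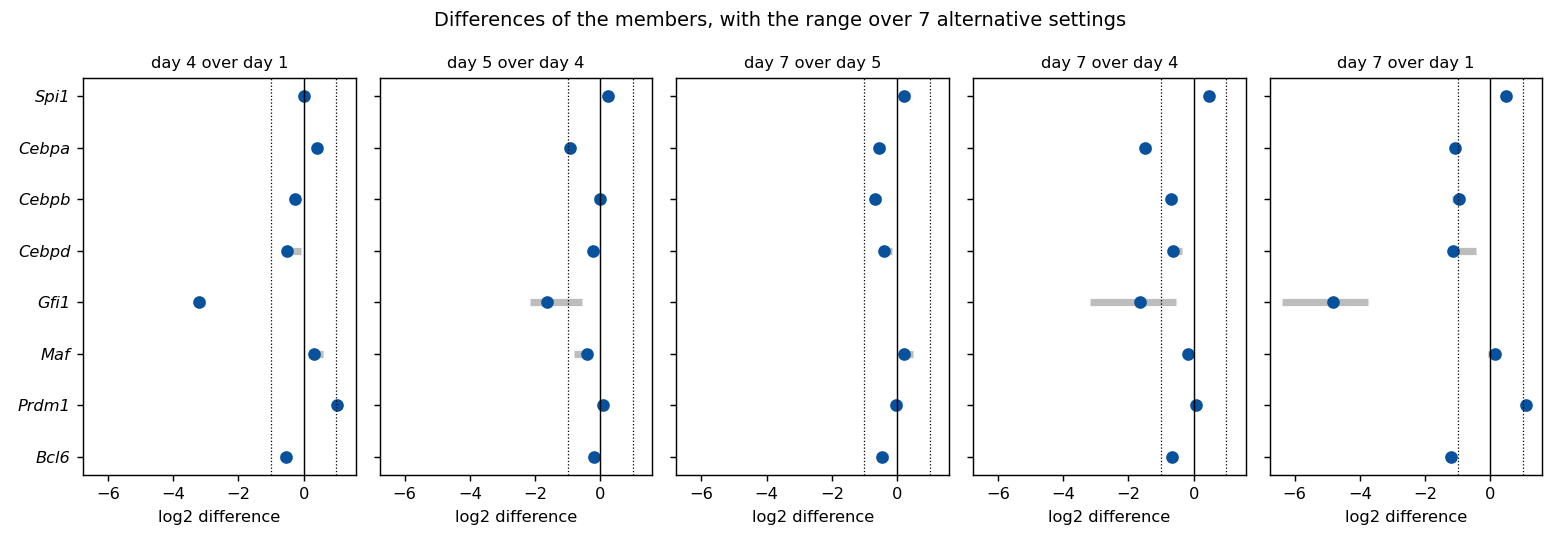
Log2 difference of each measured member in the 5 comparisons (blue points), with the range over 7 alternative settings as grey bars. Dotted lines mark 2-fold; the grey bars of Gfi1 are wide where its signal was under the floor, and those of Prdm1 reach the 2-fold line for day 4 against day 1.

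**Figure D3:**
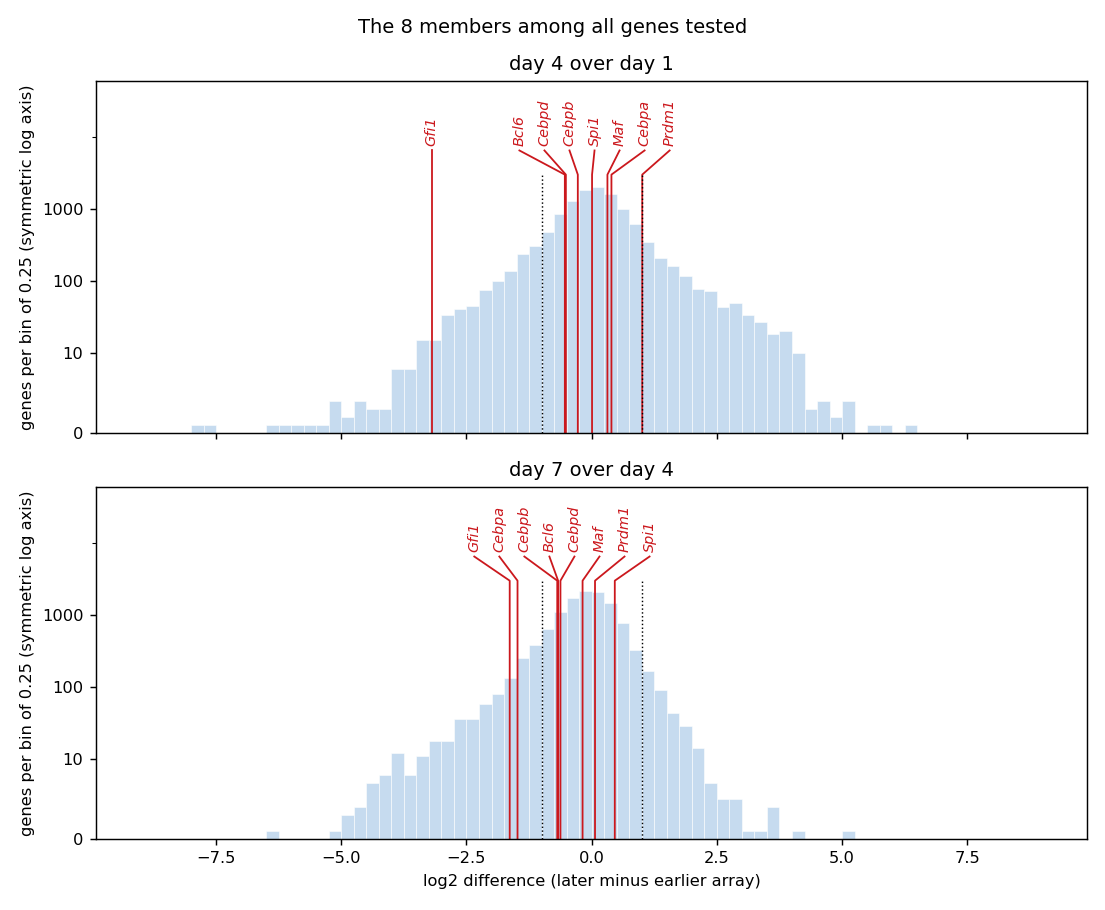
Number of genes (symmetric log axis) by log2 difference in bins of 0.25, for day 4 over day 1 and day 7 over day 4, with the 8 measured members as red lines and 2-fold as dotted lines. Gfi1 at -3.20 stands far in the lower tail of the upper panel, and Gfi1 and Cebpa at -1.64 and -1.48 are the 2 members past 2-fold in the lower one.

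PU.1 RNA differed by less than 2-fold between any pair of arrays. Spi1, measured by probe set 1418747_at, had a signal of 1216, 1222, 1439 and 1683 on days 1, 4, 5 and 7. The first 2 arrays were nearly equal and the day 7 array was the highest. The log2 difference of Spi1 was 0.01 for day 4 against day 1 (-0.02 under median scaling), 0.24 for day 5 against day 4 and 0.23 for day 7 against day 5. The whole span was 1.38-fold, under the 2-fold mark in every comparison and setting. For scale, probe sets of the same gene had a pooled SD between 0.26 and 0.53 in their log2 differences, over the 5 comparisons. This describes how far probe sets of a gene disagree, and not variation between arrays or cultures.

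Genes that PU.1 is known to activate did not move as a block. Of 19 measured, 3 were at least 2-fold higher and 2 lower on day 4 than on day 1, against 10.0% and 8.65% of all genes. Their median log2 difference was -0.04, against 0.05 for all measured genes. Most different were the osteoclast protease gene Ctsk, 14.0-fold higher, the integrin gene Itgam, 3.23-fold lower, the phosphatase gene Acp5, 2.38-fold higher, and Tnfrsf11a, the gene for the RANKL receptor, 2.19-fold higher. On day 7 over day 4, 1 was higher, Cd14 at 2.24-fold. The cytokine receptor gene Csf2rb at 2.60-fold and the NADPH oxidase gene Ncf1 at 2.15-fold were the 2 lower ones. At that comparison 3.12% of all genes were higher and 9.12% lower. Csf1r, the gene for the M-CSF receptor and a classic PU.1 target, had signals of 11964, 11068, 11752 and 11651 on days 1, 4, 5 and 7. Its log2 differences lay between -0.11 and 0.09 in the 5 comparisons.

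By their brightest probe sets all 3 measured C/EBP members were lower on day 7 than on day 1, and they took different routes. Cebpa, measured by probe set 1418982_at, had a signal of 791, 1040, 546 and 372 on days 1, 4, 5 and 7. It was thus highest on day 4, before the cytokines were added, and lower on both later arrays than on either earlier one. The log2 difference was 0.39 for day 4 against day 1 and -0.93 for day 5 against day 4, where 559 of 11804 genes (4.74%) had a difference as low or lower. On day 7 Cebpa was 2.79-fold lower than on day 4, with 3.77% of genes as low or lower, and 2.12-fold lower than on day 1. The last of these was under 2-fold after quantile normalization (-0.94) and median scaling (-0.95).

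Cebpb, the factor of inflammatory macrophages, was measured by 2 probe sets that moved in parallel. Probe set 1418901_at had 6699, 5529, 5455 and 3433 on days 1, 4, 5 and 7, and 1427844_a_at had 2256, 1757, 1517 and 861. Both were lowest on day 7, and the largest step of each was the last, with log2 differences of -0.67 and -0.82 for day 7 against day 5. Over the whole course Cebpb was 1.95-fold lower by its brighter probe set and 2.62-fold lower by the dimmer one, so the 2-fold call depends on the probe set. The array does not separate the long and short proteins made from this 1 RNA, which are known to act in opposite ways in osteoclasts.

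Cebpd, a factor of acute inflammation, was lower at each step by its brighter probe set 1423233_at, with 2973, 2080, 1780 and 1350 on days 1, 4, 5 and 7. On day 7 it was 2.20-fold lower than on day 1, a log2 difference of -1.14. The other probe set, 1456605_at, had 56.9, 73.1, 63.5 and 67.3, close to the floor on all arrays and without that decline. With the mean of both probe sets the log2 difference was -0.45, so the call rests on the brighter probe set.

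Genes that C/EBPβ and C/EBPδ are known to drive in inflammation were mixed until day 5 and mostly lower on day 7. Of 16 tested, 3 were at least 2-fold higher and 3 lower on day 5 than on day 4 (median 0.43), against 2.02% and 4.04% of all genes. On day 7 over day 5, 1 was higher and 9 lower, against 0.853% and 5.84% of all genes. The median at that step was -1.22, against -0.11 for all genes. The higher ones on day 5 were the chemokine genes Ccl2 at 5.67-fold and Cxcl3 at 3.04-fold, and the arginase gene Arg1 at 2.62-fold. On day 7, Cxcl3 was at least 32.0-fold lower than on day 5, Arg1 13.2-fold, the prostaglandin synthase gene Ptgs2 11.6-fold and the iron-binding Lcn2 9.72-fold. The 1 higher gene was the chemokine gene Ccl3, with 3311 on day 7, against 1490 on day 5, and Ccl2 had 9525 on day 7, against 7180 on day 5. Lcn2 is also a neutrophil granule gene. Of the other C/EBP genes with a probe set, Cebpg, which lacks an activating region, had 931, 771, 553 and 542 on the 4 days, and the stress-induced Ddit3 had 1012, 402, 272 and 365.

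Gfi1 had the largest differences of the measured members. Probe set 1417679_at had a signal of 926, 101, 22.8 and 11.1 on days 1, 4, 5 and 7, the last 2 under the floor. The signal was thus lower on day 4, before any cytokine was added. On day 4 it was 9.18-fold lower than on day 1, and 57 of 11981 genes (0.476%) had a difference as low or lower, counting genes at the floor on 1 array at their bound. On day 5 it was at least 3.11-fold lower than on day 4, where 1.09% of genes were as low or lower, and on day 7 at least 28.5-fold lower than on day 1. Under a floor at the 60th percentile of all values the bound for day 5 over day 4 was a log2 difference of -0.55, no longer 2-fold.

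The neutrophil genes moved on the same arrays. Of 18 measured granule and maturation genes 13 were lower by 2-fold or more on day 4 than on day 1, 12 on day 5 than on day 4 and 14 on day 7 than on day 5, and 0 were higher at any of these steps. Fcnb, Ms4a3, Elane and Ctsg, genes of granule and other proteins of neutrophil precursors, were 17.7-fold, 12.8-fold, 10.6-fold and 9.86-fold lower when day 4 was set against day 1, each by more than Gfi1. The next were Cd177 at 7.68-fold, Prtn3 at 7.25-fold, Mpo at 6.58-fold, Itgb2l at 6.34-fold and Padi4 at 5.53-fold lower, and the smallest difference was that of S100a9, at 1.09-fold lower. S100a9 had signals of 19373, 17694, 11411 and 1434 on days 1, 4, 5 and 7, and Ltf had 11406, 5102, 1705 and 175. Csf3r, the gene for the G-CSF receptor, which C/EBPα is known to activate, had 4031, 1174, 282 and 68.6. It was therefore 3.43-fold lower on day 4 than on day 1, the same step at which the log2 difference of Cebpa was 0.39. Gfi1b, a relative of Gfi1 in red cells and platelets, had 118, 64.1, 40.8 and 24.0, and the summed erythroid signal was lower on the same arrays; its part in the values of Gfi1b was not tested.

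**Figure D4:**
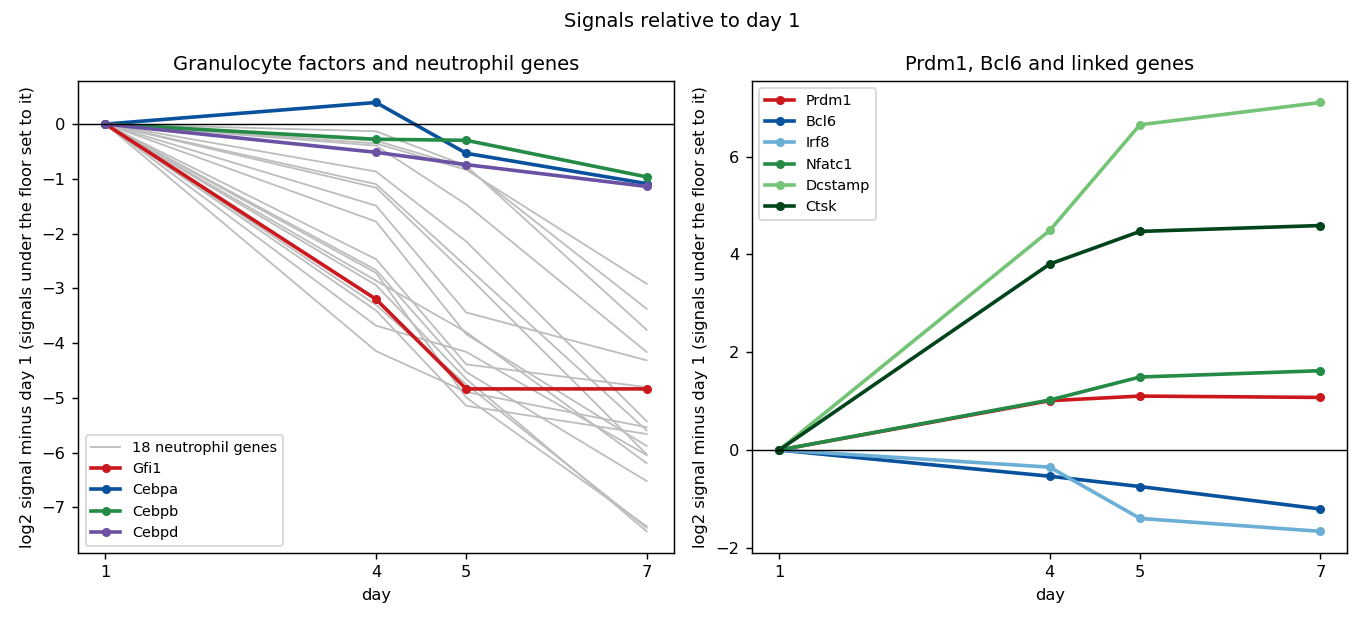
Log2 signal minus its day 1 value on each array, with signals under the floor set to it. Left: Gfi1 (red) lies within the range of the 18 neutrophil genes (grey) on every later array, while Cebpa, Cebpb and Cebpd lie above all 18 on day 7; right: Prdm1, Nfatc1, Dcstamp and Ctsk are above their day 1 values on every later array, Bcl6 and Irf8 below.

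Set against day 1, Prdm1 was higher and Bcl6 lower on every later array. Prdm1, measured by probe set 1420425_at, had a signal of 361, 727, 776 and 762 on days 1, 4, 5 and 7. The day 1 array was low, the other 3 arrays were close to each other, and the difference lay between days 1 and 4. On day 4 Prdm1 was 2.01-fold higher than on day 1, a log2 difference of 1.01, and 9.87% of genes were as high or higher. This lies at the edge of the call: with 16 added to each signal in place of the floor it was 0.98, and after median scaling also 0.98. On day 5, the first array with RANKL, the log2 difference from day 4 was 0.09, and on day 7 it was -0.03 from day 5 (0.08 and 0.15 under quantile normalization and median scaling). Over the whole course Prdm1 was 2.11-fold higher on day 7 than on day 1.

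Bcl6 was lower at each step by both of its probe sets. The brighter, 1421818_at, had 791, 545, 471 and 343 on days 1, 4, 5 and 7, and 1450381_a_at had 202, 105, 85.1 and 75.2. The highest array of each was day 1 and the lowest day 7. No single step reached 2-fold by either probe set, and over the whole course Bcl6 was 2.31-fold and 2.69-fold lower. On day 7 over day 1, 12.7% of genes had a difference as low or lower than that of the brighter probe set.

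The genes that BCL6 is known to repress in osteoclasts were higher on all later arrays than on day 1. Nfatc1, the master factor of osteoclasts, had 589, 1197, 1658 and 1814 on days 1, 4, 5 and 7, and Ctsk had 568, 7934, 12602 and 13694. The fusion gene Dcstamp was under the floor on day 1, at 24.7, and had 730, 3266 and 4480 on the later arrays. Nfatc1, Ctsk and Dcstamp also belong to the osteoclast list. On day 4 over day 1, 9 of 15 tested genes of that list were at least 2-fold higher and 1 lower, against 10.0% and 8.65% of all genes. On day 7 over day 1, 12 of 16 were higher and 1 lower, against 12.7% and 16.2%. Irf8, an inhibitor of osteoclast formation that BLIMP1 represses, had 2440, 1915, 925 and 770. Its largest step was from day 4 to day 5, where it was 2.07-fold lower and Prdm1 differed by 0.09 on the log2 scale. Because BCL6 and BLIMP1 are also factors of B cells, the B cell list is given beside them. On day 4, 10 of 15 tested B cell genes were lower by at least 2-fold than on day 1. The counts were 8 of 13 on day 5 over day 4 and 6 of 9 on day 7 over day 5. The shares of all genes lower at these steps were 8.65%, 4.04% and 5.84%. Of 7 tested plasma cell genes 3 were lower and 1 higher on day 4 than on day 1, against 8.65% and 10.0% of all genes. The higher one was Sdc1, which stromal and epithelial cells share. The plasma cell genes Jchain and Mzb1 had 1706, 636, 316 and 75.3, and 1176, 418, 152 and 64.9. Xbp1 and Slamf7 of the same list had 6774, 5912, 6168 and 5979, and 455, 461, 136 and 133. On day 7 over day 1, 5 of the 7 were lower by at least 2-fold and 1 was higher, against 16.2% and 12.7% of all genes. The part of plasma cells in the values of Prdm1 was not tested.

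The promoters of Gfi1, Prdm1 and Bcl6 are shown because Gfi1 had the widest span, and Prdm1 and Bcl6 differed from day 1 in opposite directions. They were also chosen because their letters hold motifs of factors of the same network. RefSeq sequences of GRCm38.p6 were found for 5 of the 9 genes, with 7 start sites. Both strands were searched for TTGCNNAA (C/EBP), GAGGAAG (PU.1), AGNGAAAG (BLIMP1) and TTCCNNGAA (BCL6) in windows that end 50 bases after the start site, and the 250 bases before the start site are printed from 5′ to 3′ on the gene's strand. Capitals mark the matches, which did not overlap each other. In order, the windows lie on the minus strand at chr5:107725806-107726055, chr10:44458749-44458998, chr16:23988853-23989102 and chr16:23981284-23981533.
Gfi1: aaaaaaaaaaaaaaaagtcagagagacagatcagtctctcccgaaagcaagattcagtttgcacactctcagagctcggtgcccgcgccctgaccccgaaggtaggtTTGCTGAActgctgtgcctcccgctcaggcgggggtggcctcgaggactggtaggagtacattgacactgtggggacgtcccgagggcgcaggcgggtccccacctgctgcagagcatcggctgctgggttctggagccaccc
Prdm1: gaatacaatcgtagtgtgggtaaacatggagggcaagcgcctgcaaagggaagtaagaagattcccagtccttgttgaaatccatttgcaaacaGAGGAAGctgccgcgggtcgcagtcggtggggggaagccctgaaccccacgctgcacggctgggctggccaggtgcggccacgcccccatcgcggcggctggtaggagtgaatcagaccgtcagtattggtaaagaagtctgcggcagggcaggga
Bcl6, outer start: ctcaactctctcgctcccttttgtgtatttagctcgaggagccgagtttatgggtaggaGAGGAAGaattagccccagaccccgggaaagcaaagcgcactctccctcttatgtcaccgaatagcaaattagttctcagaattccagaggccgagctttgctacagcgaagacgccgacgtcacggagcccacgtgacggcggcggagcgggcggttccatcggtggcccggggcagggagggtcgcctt
Bcl6, inner start: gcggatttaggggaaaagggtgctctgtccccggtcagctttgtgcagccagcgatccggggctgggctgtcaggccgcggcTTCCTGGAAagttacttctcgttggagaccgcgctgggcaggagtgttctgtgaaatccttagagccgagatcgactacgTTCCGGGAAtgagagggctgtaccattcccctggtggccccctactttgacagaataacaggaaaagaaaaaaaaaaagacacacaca

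The Gfi1 window held a C/EBP match that begins 143 bases before the start site, a motif found in 10.8% of all 32851 promoters. AGNGAAAG, in 8.63% of promoters, was found at both Gfi1 start sites, 40 bases before the inner start site and 9 bases after the outer one, outside the stretch printed. Prdm1 and the outer start of Bcl6 each held GAGGAAG, at 156 and 191 bases before the start site, which 13.6% of promoters hold. The inner start of Bcl6 held TTCCNNGAA at 168 and 88 bases before it, a motif in 4.81% of promoters. The windows of Cebpa and Cebpb held 0 matches of the 4 motifs. Of all 7 windows searched, 1 held the C/EBP motif, 2 the PU.1 motif, 2 the BLIMP1 motif and 1 the BCL6 motif. A match is a run of letters and was not measured as a binding site.

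Maf had 6 probe sets, and they did not move as 1. Probe set 1456060_at, the brightest, had 4960, 6168, 4677 and 5438 on days 1, 4, 5 and 7, a narrow span. Probe sets 1447849_s_at, 1437473_at and 1435828_at had 738, 1798, 1025 and 1973, then 466, 889, 452 and 673, then 312, 625, 348 and 659. These 4 shared a shape, higher on day 4 than on day 1, lower on day 5 and higher again on day 7. The shape was looked for after the values were seen, and 7.64% of genes had it. The dimmer 3 had wider differences than the brightest: between 0.93 and 1.28 against 0.31 for day 4 against day 1, between -0.98 and -0.81 against -0.40 for day 5 against day 4, and between 0.57 and 0.94 against 0.22 for day 7 against day 5, all on the log2 scale. Probe set 1444073_at went another way, with 247, 253, 75.3 and 76.6, and 1447945_at was under the floor except on day 7, at 40.5. Over the 4 arrays 1456060_at spanned 1.32-fold and 1437473_at 1.97-fold, but 1447849_s_at spanned 2.67-fold, 1435828_at 2.12-fold and 1444073_at 3.36-fold. On day 7 over day 1, 1447849_s_at and 1435828_at were 2.67-fold and 2.12-fold higher and 1444073_at 3.22-fold lower. The 2-fold call of Maf thus depends on the probe set. The platform annotation does not say which part of the gene each probe set matches, so the cause of the disagreement was not tested.

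Macrophage genes linked to c-MAF were higher on day 4 than on day 1, in 9 of 14 cases with 0 lower (median 1.06). Of all genes 10.0% were higher and 8.65% lower (median 0.05). The scavenger receptor gene Marco was 6.87-fold higher, Mrc1, for the mannose receptor, 5.15-fold, and the complement genes C1qa and C1qc 3.37-fold and 2.89-fold. On day 5, where the Maf probe sets were lower than on day 4, 1 of 14 was higher and 2 were lower (median -0.15). These were the folate receptor gene Folr2 at 3.09-fold higher, the efferocytosis receptor gene Mertk at 2.35-fold lower and the iron exporter gene Slc40a1 at 2.18-fold lower. At that step 2.02% of all genes were higher and 4.04% lower (median 0.06). On day 7 over day 5, 1 was higher, Folr2 at 2.46-fold, and 2 were lower, F13a1 at 3.65-fold and Marco at 2.63-fold (median 0.07). The shares of all genes were 0.853% higher and 5.84% lower (median -0.11).

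Among other factors that work with or against these genes, more were lower than higher at each step, though most did not reach 2-fold. Of 22 measured, 6 were at least 2-fold lower and 0 higher on day 4 than on day 1, against 8.65% and 10.0% of all genes. Among the lower ones were Myb, a factor of progenitors, at 7.15-fold, and Irf4, which pairs with PU.1 in B cells, at 3.08-fold. The monocyte factor gene Klf4 was lower at 2.67-fold and Ddit3 at 2.52-fold. On day 5 over day 4, 5 were lower and 0 higher, against 4.04% and 2.02% of all genes. Myb was lower at 7.55-fold, Irf4 at 4.59-fold and the red cell factor gene Gata1 at 2.56-fold. Egr2, a macrophage factor that works against GFI1, was lower at 2.26-fold. On day 7 over day 4, 7 were lower and 1 was higher, against 9.12% and 3.12% of all genes. The higher one was Ets2, a relative of PU.1, with signals of 1165, 1092, 2005 and 2893 on days 1, 4, 5 and 7, the last 2.65-fold above day 4. The median of this list was -0.58 for day 4 against day 1, -0.46 for day 5 against day 4 and -0.37 for day 7 against day 5, below that of the members at the first 2 steps. For all genes these medians were 0.05, 0.06 and -0.11.

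Among 10034 genes above the floor on all arrays, those whose centred log2 profile lay closest to each member that spanned 2-fold were taken, by the largest absolute difference over the 4 arrays. For Bcl6 these were Kdm4c (0.04), Cebpd (0.04) and Tsga10 (0.05), so that another member was among the closest. For Cebpd they were Vps54 (0.02), Ubap1 (0.03) and Khdc4 (0.03), for Cebpa Csad (0.07), Nrgn (0.08) and Gtpbp8 (0.09), and for Prdm1 Jade2, B4gat1 and Nars2 (0.04 each). With 4 arrays many genes share a shape.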

How the data were processed

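RNA was measured on 4 arrays, 1 a day. The intensity of each probe set was deposited by the authors on a linear scale; GCOS 1.4 and MAS5 are named in the submitters' processing notes, and no scaling target is stated in the labels. Per the labels, biotinylated cRNA was made from 250.0 ng of total RNA. The number of arrays limits the precision.

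From these values 64 control probe sets were left out. Of 45037 others, 34945 had 1 gene symbol, 932 several and 9160 none; the last 2 kinds were not named. Each of 18193 genes was represented by its probe set of highest average log2 signal. Signals under the floor were set to it, and where only 1 of 2 arrays was above it the fold is a bound ("at least"). The medians of gene lists count genes at their bound. No test was made.

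The members and lists were chosen with earlier results of these data known. Named genes were the members, up to 4 of a list with the largest differences, and Irf8, Nfatc1, Csf1r and Csf3r. Others were named after their values were seen: Cebpg, Ccl3, Gfi1b, S100a9, Cd177, Prtn3, Itgb2l, Padi4, Jchain, Mzb1, Sdc1, Xbp1, Slamf7, Dcstamp, Ets2, and the genes of the closing observations. The alternatives were floors at the 25th and 60th percentile (8.43 and 68.9), 16 added in place of a floor, quantile normalization, median scaling, the mean over probe sets, and leaving out probe sets that match several transcripts. The calling was tested on simulated data. A planned comparison of C/EBP protein sequences was not run. Python 3.11.15, numpy 2.4.6, pandas 2.3.3 and matplotlib 3.10.9 were used.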

Additional observations from a re-analysis of the deposited data

How the results depend on the processing

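No replicates exist, so none could be left out, and all days share replicate number 1 alone. No paired analysis was possible because each day has 1 array. Of 273 recomputed member differences 262 moved by less than the spread between a gene's probe sets, and 0 of those past 2-fold changed sign. The 11 that moved more were those of Gfi1 where it lay under the floor, and those of Cebpd and Maf with the mean over probe sets. Counts of members differed from those in the report in 6 of 70 cases. With the 25th percentile floor 1 member was lower for day 7 against day 5; with the 60th percentile floor 0 were lower for day 5 against day 4 and 1 for day 7 against day 4; with 16 added, and with median scaling, 0 were higher for day 4 against day 1. Median scaling also left 3 lower for day 7 against day 1, without Cebpa. Counts of all genes moved by over 1.5 times in 14 of 70 cases. With the 25th percentile floor 1878 were higher and 1717 lower for day 4 against day 1 (1202 and 1036 in the report), 746 and 970 for day 5 against day 4 (239 and 477), 465 and 1354 for day 7 against day 5 (99 and 678), and 852 and 1748 for day 7 against day 4 (367 and 1071). Quantile normalization gave 197 higher and 424 lower for day 7 against day 5, and 573 higher for day 7 against day 4. Median scaling gave 183 higher for day 7 against day 5. The mean over probe sets gave 150 higher for day 5 against day 4 and 421 lower for day 7 against day 5. Of 416 list medians 39 moved by more than the spread between probe sets and 0 of those past 2-fold reversed. Signals near the floor limit Gfi1 on days 5 and 7, the dimmer Cebpd probe set and the dimmest Maf probe set.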

Other observations

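Genes of the NADPH oxidase and of the common beta chain receptor, which PU.1 is known to activate, had a lower signal on each later array. The signal of Spi1 was nearly equal on days 1 and 4, at 1216 and 1222, and higher on days 5 and 7, at 1439 and 1683. Cybb, the catalytic subunit gene of the oxidase, had a signal of 11116, 7203, 5360 and 3995 on days 1, 4, 5 and 7, and Ncf1, a cytosolic subunit gene, had 7800, 3681, 2003 and 1716. Csf2rb, the receptor gene for GM-CSF and IL-3, had 5053, 3618, 2164 and 1391. Neutrophils also express these genes, and the summed signal of the 18 neutrophil genes was 6503 on day 7, against 142557 on day 1; its part in these values was not tested. Cd68 and Tyrobp, PU.1 targets of macrophages and osteoclasts, had 8038, 10553, 10053 and 11766, and 12777, 11478, 10752 and 11396. Itgam and Fcgr1, from the same PU.1 list, had 1928, 598, 1345 and 931, and 1840, 1157, 1563 and 1312. Csf2ra had 1771, 1133, 1106 and 1173. Of the 19 measured genes of that list 4 were at least 2-fold higher and 4 lower on day 7 than on day 1. The shares of all genes were 12.7% and 16.2%.

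The early response factors Egr1, Egr2 and Egr3 and the helix-loop-helix inhibitor Id2 were each lower on day 7 than on day 1. Egr3 had 368, 186, 109 and 41.3 on days 1, 4, 5 and 7, and Id2, which restrains osteoclast formation, had 2718, 1537, 1130 and 908. Egr2 was highest on day 4, with 336, 541, 240 and 152, as were Cebpa and the Egr partner gene Nab2, with 161, 254, 166 and 113. Jun, whose product pairs with PU.1 and C/EBP factors, had 1733, 2122, 2221 and 2205.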
